A study of Mus musculus with 160 samples.

Results

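The 10 Toll-like receptor genes measured here were Tlr1, Tlr2, Tlr3, Tlr4, Tlr5, Tlr6, Tlr7, Tlr8, Tlr9 and Tlr13, found by matching the Ensembl identifiers of the count files to mouse gene symbols, so that they make up 10 of 39179 genes. RNA was taken from the distal colon of 160 mice of 4 knockout lines that were used to test how genes predicted to drive inflammatory bowel disease networks act in colitis. DSS (dextran sulfate sodium, a polymer in drinking water that injures the colonic epithelium) was given for 5 days and followed by water. The labels do not say which mice received DSS, so treated and untreated mice stand together in every group below.

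Knockout mice were homozygous in every line and were compared with wild-type mice of the same line. The Nckap1l line (Hem1 in the labels) was C57BL6/J, was collected on day 12 and held 16 knockout and 15 wild-type samples, of which 12 were female. The Dock2 line was C57BL6/J with 3% DSS and collection on day 10, and held 18 knockout and 24 wild-type samples, of which 20 were female. The Gpsm3 line was C57BL6/J with 3% DSS and day 10, with 20 knockout and 20 wild-type males. The Dok3 line was strain 129 with 3.5% DSS and day 10, with 26 knockout and 21 wild-type males. Mice came from crosses of heterozygotes, and cages mixed the genotypes. Whole distal colon was sequenced in bulk, so a level does not say which cells a transcript came from.

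Toll-like receptors are membrane proteins that recognise parts of microbes and start inflammatory and interferon responses. Tlr1, Tlr2, Tlr4, Tlr5 and Tlr6 act at the cell surface, where Tlr2 pairs with Tlr1 or with Tlr6 to bind bacterial lipopeptides, Tlr4 binds lipopolysaccharide and Tlr5 binds flagellin. Tlr3, Tlr7, Tlr8, Tlr9 and Tlr13 sit in endosomes and read nucleic acids, double-stranded RNA for Tlr3, single-stranded RNA for Tlr7, bacterial ribosomal RNA for Tlr13 and DNA for Tlr9, and they depend on the chaperone Unc93b1. All but Tlr3 signal through the adaptor Myd88, and Tlr3 and Tlr4 signal through Ticam1 (TRIF). In the colon these receptors meet a dense microbiota, and both the epithelium and the leukocytes beneath it carry some of them.

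The coordinates of the members are given in GRCm38 from the GENCODE annotation. Tlr1 (chr5:64924679-64933563) and Tlr6 (chr5:64952031-64960097) lie next to each other on the minus strand, and their transcripts share 259 stretches of 100 bases, the length of a read, which is 7.89% of those of Tlr1 and 7.09% of those of Tlr6. Reads from these stretches could not be assigned to 1 of the 2 genes, so their levels are uncertain to that extent. Tlr7 (chrX:167304929-167330558) and Tlr8 (chrX:167242696-167264329) are neighbours on the X chromosome, and Tlr13 (chrX:106143204-106160493) lies on it too. Tlr2 (chr3:83836272-83841767), Tlr3 (chr8:45395665-45411080), Tlr4 (chr4:66827584-66930284), Tlr5 (chr1:182954788-182976044) and Tlr9 (chr9:106222598-106226883) are on autosomes. Tlr3 shares 3.32% of its stretches with Gm45542, and the other members share none. No annotated gene overlapped a member.

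The windows around the start sites of 4 members are printed as examples. Tlr8, Tlr9 and Tlr13 rose and fell together across the mice and Tlr1 moved against Tlr8 and Tlr13, as given below. Tlr2 and Tlr6 rose and fell with Tlr8 and Tlr13 as well, and their windows are not printed. The windows come from RefSeq in GRCm38.p6 and are 300 bases long, mostly upstream of the annotated start, written 5′ to 3′ on the strand of the gene. Capitals mark GAGGAAG (or its reverse complement), the core of the motif of the myeloid and B cell factor PU.1, in Tlr13 (chrX:106143025-106143324, plus strand), Tlr9 (chr9:106222348-106222647, plus strand) and Tlr1 (chr5:64933509-64933808, minus strand). In Tlr9 they also mark the AP-1 motif TGANTCA, and in Tlr8 (chrX:167264280-167264579, minus strand) the interferon response motif TTCNNTTTC.
Tlr13: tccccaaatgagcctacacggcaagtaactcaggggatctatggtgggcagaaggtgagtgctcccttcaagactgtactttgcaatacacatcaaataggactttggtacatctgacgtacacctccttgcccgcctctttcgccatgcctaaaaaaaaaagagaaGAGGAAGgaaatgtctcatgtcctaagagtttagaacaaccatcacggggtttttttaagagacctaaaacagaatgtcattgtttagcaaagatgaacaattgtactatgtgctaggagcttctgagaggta
Tlr9: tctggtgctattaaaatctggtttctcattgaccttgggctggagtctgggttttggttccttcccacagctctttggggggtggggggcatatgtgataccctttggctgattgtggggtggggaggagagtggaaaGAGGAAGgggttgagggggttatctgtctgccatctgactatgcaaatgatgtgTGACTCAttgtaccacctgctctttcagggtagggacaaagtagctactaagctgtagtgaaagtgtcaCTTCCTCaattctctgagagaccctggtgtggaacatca
Tlr8: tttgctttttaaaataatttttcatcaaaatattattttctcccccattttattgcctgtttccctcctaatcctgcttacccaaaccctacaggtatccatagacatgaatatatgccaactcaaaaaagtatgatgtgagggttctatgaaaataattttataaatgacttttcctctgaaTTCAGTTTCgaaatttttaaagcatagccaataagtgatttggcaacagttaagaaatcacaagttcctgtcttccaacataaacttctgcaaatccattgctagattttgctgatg
Tlr1: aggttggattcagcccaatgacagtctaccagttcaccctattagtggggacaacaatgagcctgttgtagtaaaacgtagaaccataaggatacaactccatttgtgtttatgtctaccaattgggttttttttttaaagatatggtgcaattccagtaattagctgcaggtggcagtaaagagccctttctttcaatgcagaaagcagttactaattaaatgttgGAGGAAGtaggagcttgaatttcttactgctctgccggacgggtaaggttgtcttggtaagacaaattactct
RefSeq gave 10 such windows for 8 members, Tlr4 and Tlr7 having none in the table used. Both strands of each window were searched. GAGGAAG was found in 3 of the 10 windows, all of them printed above, against 13.6% of all 32851 windows of the same length. The windows of Tlr2 and Tlr6 had none, although their r with Tlr13 (0.85 and 0.86) was above that of Tlr9 (0.78). A second window of Tlr1, not printed, had none either. TTCNNTTTC was found in 2 (Tlr8 and 1 window of Tlr6, with 2 overlapping matches), against 8.56%. TGANTCA was found in 1 (Tlr9) against 7.81%, and GGANTTTCC, a narrow form of the NF-kB motif, in 1 (Tlr3) against 1.25%. Other forms of the NF-kB motif were not searched, so windows without this string may hold them. A match is a run of letters and does not show that a factor binds there.

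Sequencing gave 4344988 to 19993833 counts per sample, with a median of 15989625. The marker lists showed 34 samples with a mean log2 CPM above 3 for the skin or striated muscle markers, which were 8 of 16 knockouts and 9 of 15 wild types of the Nckap1l line, 1 of 18 and 4 of 24 for Dock2, 2 of 20 and 1 of 20 for Gpsm3 and 4 of 26 and 5 of 21 for Dok3. Epithelial RNA was present throughout but in varying amount, with the 10 colon epithelium markers at a mean log2 CPM of 6.62 to 9.96 (median 9.32). Of these markers, Epcam was at 258 CPM or more in every sample. Others fell further, such as Slc26a3 to 11.2 and Cdx2 to 0.786 CPM, with medians of 940 and 27.6 CPM. The targeted gene had a lower median in knockout than in wild-type samples in each line, at 14.8 against 27.2 CPM for Nckap1l, 22.5 against 34.2 for Dock2, 0.572 against 3.21 for Gpsm3 and 3.16 against 3.63 for Dok3, with overlapping ranges in all 4 lines. The Dok3 level did not separate the libraries labelled Dok3 knockout, which ran from 1.05 to 39.6 CPM, from those labelled wild type, which ran from 1.16 to 26.3 CPM. In the Gpsm3 line, 2 libraries labelled knockout were above 1.5 CPM of Gpsm3 and 1 labelled wild type was below it. In the Dok3 line, 5 libraries labelled male had a log2 CPM of Xist above the mean of their Y-linked genes. Calls that changed without these libraries are given with and without them.

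Levels between genes were compared per length, as CPM (counts scaled to library size after TMM normalization) per kilobase of exon. Tlr1 had the highest level, with a median of 23.3 CPM per kilobase over the 160 samples and a range of 5.53 to 29.9. It made up a median of 39.4% of the summed level of the 10 members. Tlr4 followed at 11.6 (7.09 to 22.2), then Tlr3 at 7.7 and Tlr2 at 5.89. The other 6 members were lower, with medians of 2.26 for Tlr13, 1.96 for Tlr7, 1.69 for Tlr5, 1.68 for Tlr9, 1.54 for Tlr8 and 0.649 for Tlr6. The highest and the lowest level per length thus belonged to the 2 alternative partners of Tlr2.

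The upper and lower ends of this order were shared by nearly all samples, and its middle was not. Tlr1 exceeded Tlr4 in 146 of 160 samples, Tlr4 exceeded Tlr3 in 156, Tlr2 exceeded Tlr13 in 159 and Tlr8 exceeded Tlr6 in 158. Neighbours between them were not separated beyond the spread among samples, with Tlr13 above Tlr7 in 105, Tlr7 above Tlr5 in 103, Tlr9 above Tlr8 in 100 and Tlr5 above Tlr9 in 82. Tlr3 exceeded Tlr2 in 121 samples, but in only 14 of 31 in the Nckap1l line. By group medians, Tlr1 was first, Tlr4 second and Tlr6 last in all 8 groups of line and genotype.

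**Figure D1:**
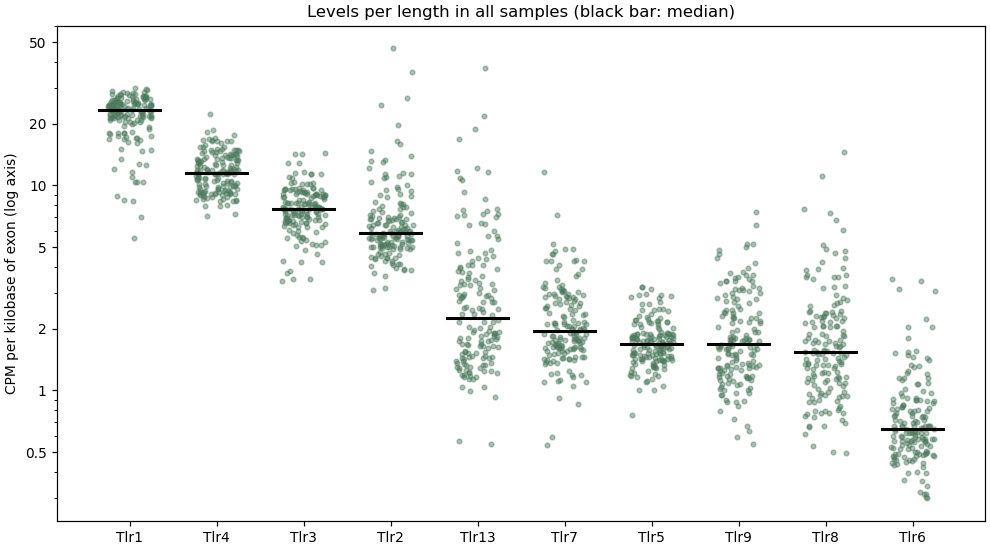
Each point is 1 of 160 samples, the vertical axis is CPM per kilobase of exon on a log scale, and the black bars are medians. Tlr1 lies highest at a median of 23.3 and Tlr6 lowest at 0.649, and the clouds of Tlr13, Tlr7, Tlr5, Tlr9 and Tlr8 overlap.

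The members differed more in how far they varied than the order of their medians shows. Tlr13 ran from 2.36 to 161 CPM with a median of 9.74, so its highest sample was 68.1 times its lowest. Tlr8 ran from 1.78 to 52.5 CPM (29.4 times), Tlr7 from 2.21 to 47.6 CPM (21.5 times) and Tlr2 from 9.26 to 141 CPM (15.2 times). Tlr4 was the steadiest member by this ratio, from 39.4 to 123 CPM (3.13 times).

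The SD of log2 CPM over the 160 samples was 1.03 for Tlr13, above 95.5% of the genes kept in all lines, and 0.86 for Tlr8, above 92.2%. It was 0.31 for Tlr4, below the median of 0.35 over those genes, and 0.36 for Tlr5, 0.38 for Tlr3 and 0.42 for Tlr1. The lowest Tlr6 count was 10 and its median 37, so counting error weighs most on this gene.

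The same knockout sample of the Dok3 line was highest for Tlr2, Tlr7, Tlr8 and Tlr13. Its neutrophil marker level was a mean log2 CPM of 9.27, the highest of all samples, and its macrophage marker level was 6.91. The lowest Tlr1 and the lowest Tlr3 values, 18.5 and 17.8 CPM, came from another knockout sample of that line, which had the highest skin marker level of 10.13 and an epithelial marker level of 7.6 where the median was 9.32. Of the 10 samples highest for Tlr13, 8 were also among the 10 highest for Tlr8, 8 for Tlr2, 8 for Tlr6 and 8 for Tlr7. None of the 10 highest for Tlr1 was among the 10 highest for Tlr2, which unrelated sets of 10 out of 160 samples often give as well.

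Knockout and wild-type samples were then compared in each line, to ask whether loss of a predicted driver gene altered receptor RNA in the colon. In none of the 4 lines did a Toll-like receptor gene change at an adjusted p under 0.05 in edgeR's quasi-likelihood test, with Benjamini-Hochberg adjustment over all genes tested. DESeq2 and limma-voom also called 0 of 10 in every line. All 10 members passed the filter on low counts in every line.

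Few genes of any kind were called, with 0% of those tested for Nckap1l, 0.034% for Dock2, 0.00569% for Gpsm3 and 0% for Dok3. In the Nckap1l and Dok3 lines these edgeR fits thus did not call the targeted gene itself. At an unadjusted p under 0.05, edgeR called 0 of 10 members for Nckap1l against 4.5% of all genes, 1 for Dock2 against 5.1%, 2 for Gpsm3 against 4.86% and 0 for Dok3 against 2.19%. DESeq2 gave 0, 1, 3 and 0 members at that threshold, and limma-voom 0, 1, 0 and 0. Shares of all genes under an unadjusted p of 0.05 were taken in the main edgeR fits only. Because treated and untreated mice are mixed within each group, the spread includes any effect of DSS.

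Among the surface receptors, Tlr4 came closest in the Dock2 line. Its 18 knockout samples had a lowest, median and highest value of 48.8, 66.9 and 91.2 CPM, and the 24 wild-type samples 48.8, 64 and 83.1 CPM. These groups overlapped nearly throughout, with a log2 fold change of 0.15 (SE 0.07, unadjusted p = 0.0376, adjusted p = 0.948 in edgeR). For Tlr1 the log2 fold changes were -0.10 (SE 0.16), 0.04 (0.06), -0.05 (0.07) and 0.05 (0.13) in the Nckap1l, Dock2, Gpsm3 and Dok3 lines. Tlr5 lay between -0.10 (SE 0.12, Dok3 line) and 0.10 (SE 0.15, Nckap1l line).

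In the Gpsm3 line, 9 of the 10 members had a positive log2 fold change, with a median of 0.26 against 0 over all genes tested, and none passed the adjusted threshold. Tlr9 was 1.91, 6.14 and 22.4 CPM (lowest, median, highest) in 20 knockout samples and 2.53, 5.32 and 10.4 CPM in 20 wild-type samples. The knockout samples held both the lowest and the highest value, and the log2 fold change was 0.53 (SE 0.24, unadjusted p = 0.0328, adjusted p = 0.936 in edgeR). Tlr6, the lipopeptide partner of Tlr2, was 1.48, 2.77 and 7.61 CPM against 1.19, 2.18 and 4.27 CPM, with a log2 fold change of 0.35 (SE 0.17, unadjusted p = 0.0454, adjusted p = 0.936).

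Both differences had the same direction in the 2 runs of sample numbers of that line. The runs are parts of the same samples in which these 2 members had the smallest p, so this gives no separate support. In the first run the Tlr9 median was 4.38 CPM for wild types against 5.36 CPM for knockouts, and in the second 6.97 against 9.07 CPM. The knockouts had a median neutrophil marker level of 0.41 and the wild types one of -0.27 (mean log2 CPM). The macrophage markers stood at 5.23 against 4.85 and the type I interferon response markers at 4.24 against 3.03, and the part of these 2 lists was not tested. With the neutrophil marker level as a covariate the median log2 fold change of the members was 0.07 and 0 of 10 had an unadjusted p under 0.05. Without the 3 libraries whose Gpsm3 level goes against the label, 3 of 10 members had an unadjusted p under 0.05 and 0 an adjusted one.

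Tlr9 in the Nckap1l line went the other way, from 2.77, 4.74 and 25.8 CPM in wild-type to 2.05, 4.71 and 11.9 CPM in knockout samples, a log2 fold change of -0.62 (SE 0.34, unadjusted p = 0.0804 in edgeR). The B cell marker level of these groups had a median of 2.6 (mean log2 CPM) in wild types and -0.79 in knockouts, and its part in the Tlr9 difference was not tested. A test of the genotype by line interaction over all 160 samples asked whether the knockout difference itself differed between lines. No member was called (edgeR, against 0.69% of all genes), and limma-voom called 0 as well. At an unadjusted p under 0.05, 1 member was called, against 5.68% of all genes. That member was Tlr9 (unadjusted p = 0.0141, adjusted p = 0.513). Of 49 pathway genes tested in the same way none was called and 3 had an unadjusted p under 0.05, the smallest being those of the target cytokines Il6 (p = 0.00704 in edgeR) and Il12b (p = 0.0102 in edgeR).

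**Figure D2:**
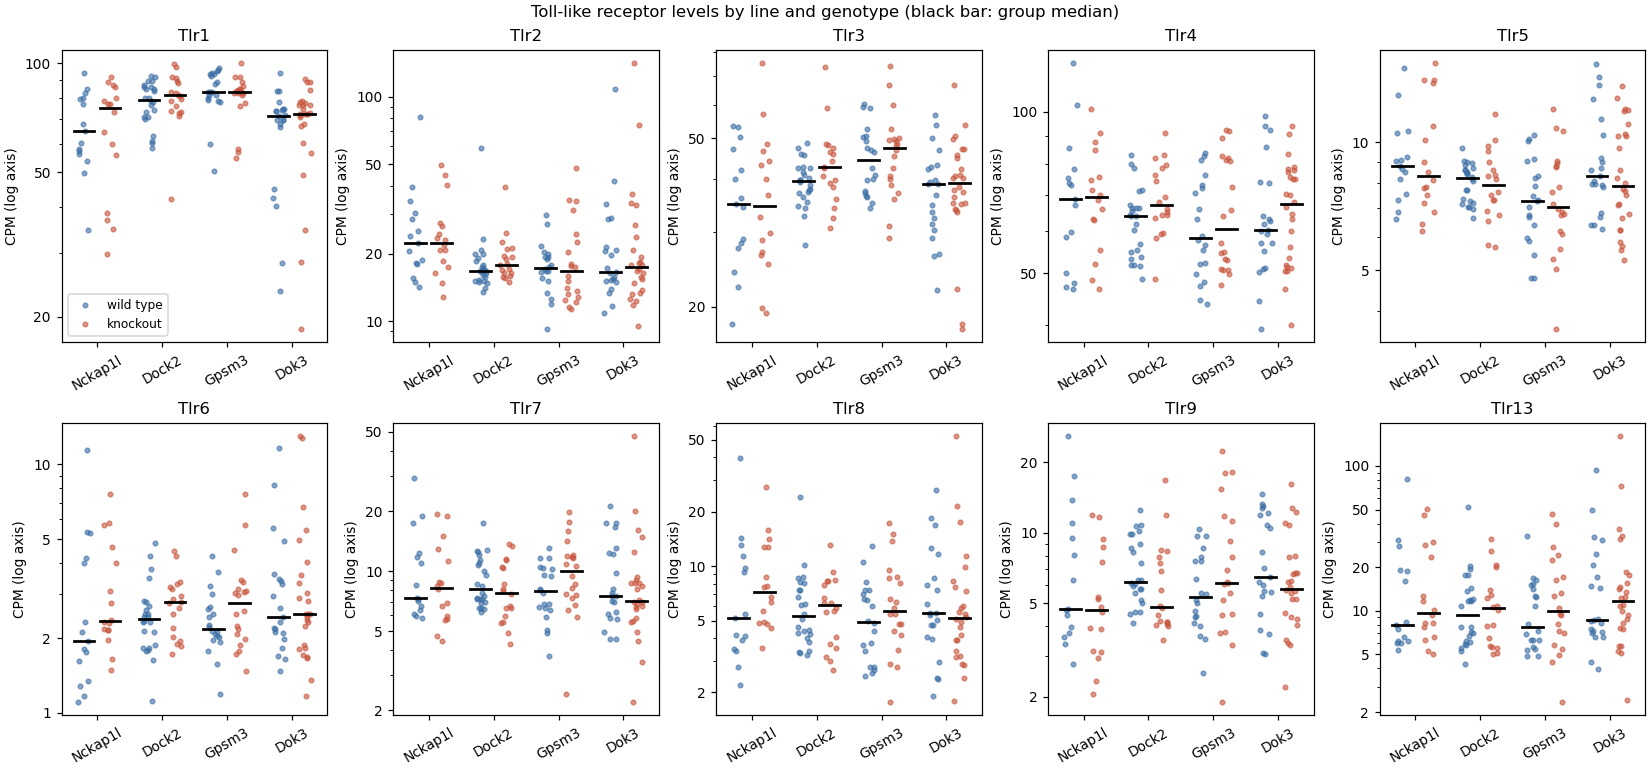
Each panel shows 1 gene, with CPM on a log axis against the 4 lines, blue points for wild-type and red points for knockout samples, and black bars for group medians. Knockout and wild-type points overlap in every line, and the highest Tlr13 point, at 161 CPM, is a knockout sample of the Dok3 line.

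**Figure D3:**
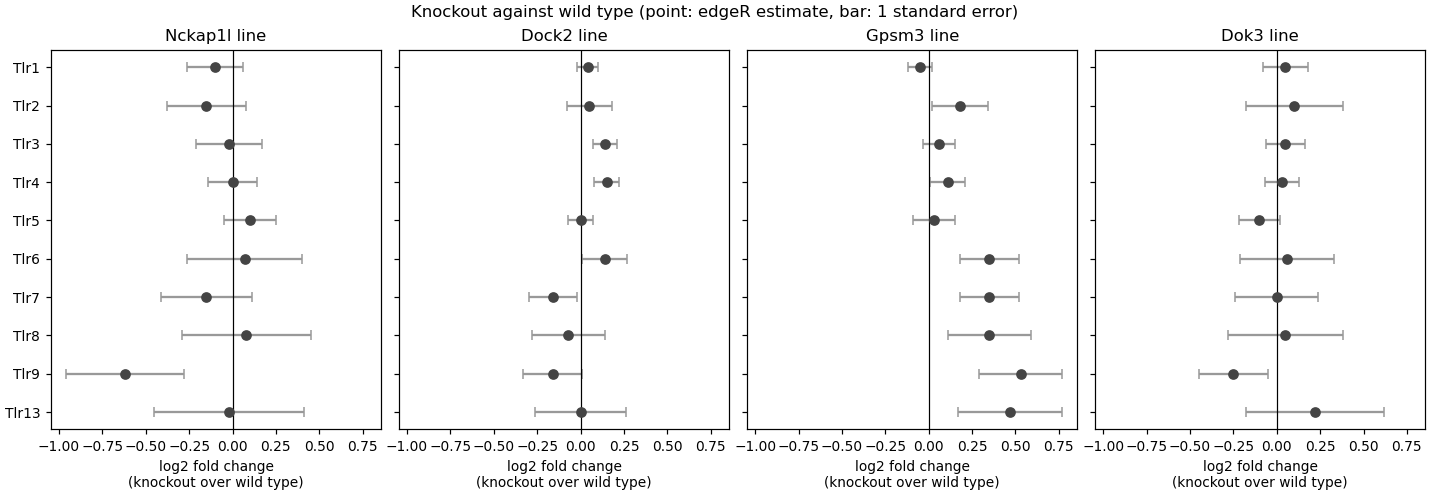
Points are edgeR log2 fold changes of knockout over wild type in each line and bars are 1 standard error. The widest bars belong to Tlr13, at 0.43 for Nckap1l and 0.40 for Dok3, and the narrowest to Tlr1 in the Dock2 line, with 0.06.

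Of 50 other genes of the pathway (accessory proteins, chaperones, adaptors, kinases, transcription factors, negative regulators, target cytokines, Tlr11 and Tlr12), 46 to 48 were tested per line. None was called between knockout and wild type in edgeR, and 1, 3, 7 and 1 had an unadjusted p under 0.05 in the Nckap1l, Dock2, Gpsm3 and Dok3 lines. Of all genes, 4.5%, 5.1%, 4.86% and 2.19% did so in these lines. The smallest p-values in the Gpsm3 line were those of Rela, an NF-kB subunit (log2 fold change 0.15, SE 0.05, adjusted p = 0.936), and Irf5, a transcription factor downstream of Myd88 (0.43, SE 0.17, adjusted p = 0.936). In the Dock2 line they were those of Tlr12 (0.37, SE 0.14, adjusted p = 0.691) and Cd180, a relative of Tlr4 on B cells (-0.36, SE 0.16, adjusted p = 0.873). Cd180 was first in the Nckap1l line too (-0.68, SE 0.32, adjusted p = 1), followed by the kinase Map3k7 (-0.08, SE 0.05). The median B cell marker level was lower in the knockouts of both lines, at 1.85 against 3.1 for Dock2 and -0.79 against 2.6 for Nckap1l (mean log2 CPM), and its part in the Cd180 values was not tested. Irak1 (-0.10, SE 0.04) and Irak2 (0.15, SE 0.08), kinases bound by Myd88, were first in the Dok3 line.

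Sex could be compared in 2 lines, a comparison of interest because Tlr7, Tlr8 and Tlr13 are X-linked. No member was called in either line in edgeR, DESeq2 or limma-voom, against 0.178% of all genes for Nckap1l and 9.75% for Dock2. At an unadjusted p under 0.05, edgeR called 0 members against 15.7% of genes for Nckap1l and 1 member against 25.6% for Dock2. DESeq2 gave 0 and 1 members and limma-voom 1 and 1, for which no share of all genes was taken. In the Dock2 line, the X-linked genes had log2 fold changes (females over males) of -0.06 for Tlr7 (SE 0.14), -0.24 for Tlr8 (SE 0.21) and -0.48 for Tlr13 (SE 0.26).

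Tlr3 had the smallest p, with 30.8, 38.6 and 48.4 CPM (lowest, median, highest) in 20 females and 28, 42.7 and 73.8 CPM in 22 males of the Dock2 line. The female range lay within the male range, and the log2 fold change was -0.18 (SE 0.07, adjusted p = 0.0909 in edgeR). Without the samples high in skin or striated muscle markers, 2 members were called in that line, Tlr3 (-0.21, adjusted p = 0.0257) and Tlr13 (-0.81, adjusted p = 0.0258), both lower in females, while 18.3% of all genes passed in that setting. With the neutrophil marker level as a covariate in all samples of the line, none was called, as in the main fit of those samples. In that setting 3 members had an unadjusted p under 0.05, against 1 in the main fit. The median log2 fold change of the members was 0.08 there, against -0.13. The share of all genes under the unadjusted threshold was not taken in that setting. Of the pathway genes, Irf3 (0.14, SE 0.04, adjusted p = 0.0151), which acts downstream of Ticam1, and the kinase Chuk (-0.12, SE 0.04, adjusted p = 0.0454) passed in the Dock2 line. These were 2 of 46 tested, while 9.75% of all genes passed. None passed in the Nckap1l line, where 1 of 48 had an unadjusted p under 0.05, against 15.7% of all genes. That gene was Irak4 (-0.18, SE 0.09, adjusted p = 0.307).

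Wild-type males of the Dok3 line (strain 129) were set against those of the Gpsm3 line (C57BL6/J), both collected on day 10. Strain, line, DSS dose and run of sample numbers cannot be told apart here. Tlr1 was lower and Tlr5 higher in the Dok3 line, 2 of 10 members, while 26.1% of all genes passed. At an unadjusted p under 0.05, 7 of 10 members passed against 39% of all genes.

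Tlr1 was 23.5, 71.7 and 94.3 CPM (lowest, median, highest) in 21 samples of the Dok3 line and 50.3, 83.3 and 97 CPM in 20 of the Gpsm3 line. The low end extended further in the Dok3 line, and the log2 fold change was -0.34 (SE 0.11, adjusted p = 0.0246 in edgeR). Tlr5 was 6.26, 8.35 and 15.3 CPM against 4.8, 7.29 and 10.4 CPM, a log2 fold change of 0.32 (SE 0.12, adjusted p = 0.0367). Tlr13 had the largest log2 fold change, 0.79, with an SE of 0.33 and an adjusted p of 0.0714, and was not called.

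These 2 calls depended on the samples chosen, and so did the share of all genes called. Without samples high in skin or striated muscle markers, of which the Dok3 group held 5 and the Gpsm3 group 1, Tlr1 alone passed and Tlr5 had a log2 fold change of 0.20 (adjusted p = 0.221 in edgeR), with 16.6% of all genes called. Against the second run of the Gpsm3 line 0 members and 7.72% of all genes passed, and against its first run only Tlr5 and 16.1% of all genes did. Against wild-type males of the Dock2 line, also C57BL6/J, 0 members and 4.08% of all genes passed. Without the 1 wild-type library whose Gpsm3 level goes against the label, 3 passed, Tlr3 being the third (-0.25, adjusted p = 0.0479), with 25% of all genes called. Without the 2 wild-type libraries of the Dok3 line whose sex-linked genes go against the label, 28.5% of all genes and 3 members passed, which were Tlr1 (-0.38, adjusted p = 0.0142), Tlr6 (0.58, adjusted p = 0.0401) and Tlr13 (0.88, adjusted p = 0.0475), whereas Tlr5 did not (0.30, adjusted p = 0.0508).

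Of the 50 pathway genes, 46 were tested between these groups, and 12 were higher and 3 lower in the Dok3 line. These were 15 of 46, while 26.1% of all genes passed in the same comparison. The 5 with the smallest p were the kinase Chuk (-0.20, SE 0.05, adjusted p = 0.00255), the ligase Traf3 (0.23, SE 0.06, adjusted p = 0.00336), the Tlr3 and Tlr4 adaptor Ticam1 (-0.33, SE 0.09, adjusted p = 0.00528), Rela (0.17, SE 0.05, adjusted p = 0.00535) and the kinase Tbk1 (-0.14, SE 0.04, adjusted p = 0.00908).

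Mice of the same group differed widely in several members, and these differences ran together. The log2 CPM of each gene was centred within cells of line, genotype, sex and run of sample numbers, which left 158 samples in 20 cells. Of the 45 pairs of members, 33 were correlated at an adjusted p under 0.05, 25 positively and 8 negatively, and all 33 had the same sign in each of the 4 lines. Each r was tested with 100000 permutations within cells, whose smallest possible p is 1e-05, and adjusted over the 45 pairs. The share of called pairs among genes of any kind was not taken, so these counts do not set the members apart. Since DSS status is unknown, treated and untreated mice cannot be told apart within a cell, and the part of DSS in these correlations was not tested.

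Tlr2, Tlr6, Tlr7, Tlr8, Tlr9 and Tlr13 formed a block in which every pair was positively correlated, from r = 0.67 for Tlr2 and Tlr9 to r = 0.94 for Tlr8 and Tlr13. For Tlr8 and Tlr13, Spearman's rho was 0.93, both permutation p were 1e-05, r was 0.93 without the 2 farthest samples and r within lines ran from 0.92 to 0.95. For Tlr2 and its partner Tlr6, r was 0.86 and rho 0.77 (both permutation p = 1e-05), with 0.84 without the 2 farthest samples. The RNA receptors Tlr7 and Tlr8, neighbours on the X chromosome, had r = 0.88 and rho = 0.86 (both permutation p = 1e-05).

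Tlr1, the other partner of Tlr2, stood outside this block. Its correlation with Tlr2 was negative, r = -0.42 (permutation p = 0.0003, adjusted p = 0.000435) and rho = -0.40 (permutation p = 1e-05), and r was -0.49 without the 2 farthest samples and between -0.64 and -0.24 within lines. It was negatively correlated with Tlr5, Tlr6, Tlr7, Tlr8 and Tlr13 as well. Its only positive called pair was Tlr3, with r = 0.69 and rho = 0.64 (both permutation p = 1e-05) and r between 0.56 and 0.80 within lines. Tlr4 took an intermediate place, positively correlated with 7 members and negatively with Tlr5 (r = -0.39, rho = -0.41, permutation p = 3e-05 and 2e-05).

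The skin and striated muscle marker levels fell into separate clusters of samples, so the correlations were also taken without the 34 samples above and within them, which left 122 and 28 samples in cells of more than 1. All 33 called pairs kept their sign without them. Tlr8 and Tlr13 had r = 0.94 and 0.89 in the 2 sets, Tlr2 and Tlr6 had 0.84 and 0.82, and Tlr1 and Tlr2 had -0.50 and -0.40. Tlr1 and Tlr3 fell to 0.46 without the high samples, against 0.71 within them. Tlr1 and Tlr5 fell to -0.32, against -0.85.

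Marker lists of 15 cell types or states were then set beside each member, as the mean log2 CPM of their genes. In bulk tissue, fewer cells of a type and less RNA per cell cannot be told apart. Of 150 relations, 112 were called after adjustment, 79 positive and 33 negative, and 97 of the 112 had the same sign in all 4 lines. How often genes of any kind follow these lists was not counted, so no share over all genes stands beside these numbers. Values below are Pearson r over 158 samples with a permutation p of 1e-05 for both r and rho unless given otherwise.

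Tlr13 and Tlr8 followed the macrophage markers most closely, each with r = 0.94 (rho = 0.94), and r was 0.95 and 0.93 without the samples high in skin or striated muscle markers. Tlr7 followed them at r = 0.91 (rho = 0.89) and Tlr6 at 0.85 (rho = 0.84). The neutrophil markers, whose S100a8 and S100a9 ran from 0 to 3220 and 4110 CPM, gave r = 0.91 with Tlr13 (rho = 0.88), 0.88 with Tlr8 (rho = 0.86), 0.86 with Tlr2 (rho = 0.81) and 0.85 with Tlr6 (rho = 0.82). The fibroblast markers gave r = 0.80 with Tlr7 (rho = 0.77), 0.78 with Tlr8 (rho = 0.76) and 0.78 with Tlr13 (rho = 0.75), and the parts of these lists in the levels were not separated.

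Tlr9, which is known from B cells and plasmacytoid dendritic cells, followed the T cell markers at r = 0.84 (rho = 0.85) and the macrophage markers at 0.79 (rho = 0.78). It followed the conventional dendritic cell markers at 0.69 (rho = 0.66), the neutrophil markers at 0.69 (rho = 0.70) and the B cell markers at 0.62 (rho = 0.65). Its r with B cell markers ran from 0.28 (Dock2 line) to 0.75 (Nckap1l line). With the plasmacytoid dendritic cell list it was 0.04 (rho = 0.04, permutation p = 0.642 and 0.687), a list in which Klk1 stood at a median of 413 CPM against 1.91 CPM for Siglech. Within the block, Tlr9 had the highest r with both the T cell and the B cell list. Tlr13 came next at 0.67 and 0.32, the latter with permutation p = 0.00028 for r and 3e-05 for rho. With the conventional dendritic cell list Tlr9 was again highest in the block, followed by Tlr7 at 0.56 (rho = 0.58). The members were not tested against each other.

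Tlr1 followed the colon epithelium markers, with r = 0.84 (rho = 0.72), 0.84 without the 2 farthest samples and 0.67 to 0.88 within lines. Without the samples high in skin or striated muscle markers r was 0.60 (adjusted p = 0.000861, 20000 permutations), and within them it was 0.75. Its relation to the endothelium markers was of the opposite sign, r = -0.76 (rho = -0.70), and -0.71 without the high samples. Tlr3 had r = 0.56 with the epithelium markers (rho = 0.38, permutation p = 1e-05 and 2e-05), but 0.18 without the high samples (adjusted p = 0.141), so that relation rested on them. Its relation to the type I interferon response markers, r = 0.47 (rho = 0.49), was 0.61 without them.

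Tlr4 had no list above r = 0.56, which was its value with the T cell markers (rho = 0.55), followed by 0.50 with the neutrophil (rho = 0.49) and 0.49 with the interferon response markers (rho = 0.49). Tlr5, known as a flagellin receptor of epithelium and some leukocytes, followed the endothelium markers at r = 0.59 (rho = 0.58) and ran against the epithelium markers at -0.47 (rho = -0.36, permutation p = 1e-05 and 3e-05). Without the high samples these were 0.40 (adjusted p = 0.000139, permutation) and -0.09 (adjusted p = 0.547, permutation). In the samples left, its r with the smooth muscle markers was 0.39 (adjusted p = 0.000968, permutation), close to that with the endothelium markers. Its r with the macrophage markers was -0.01 there.

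**Figure D4:**
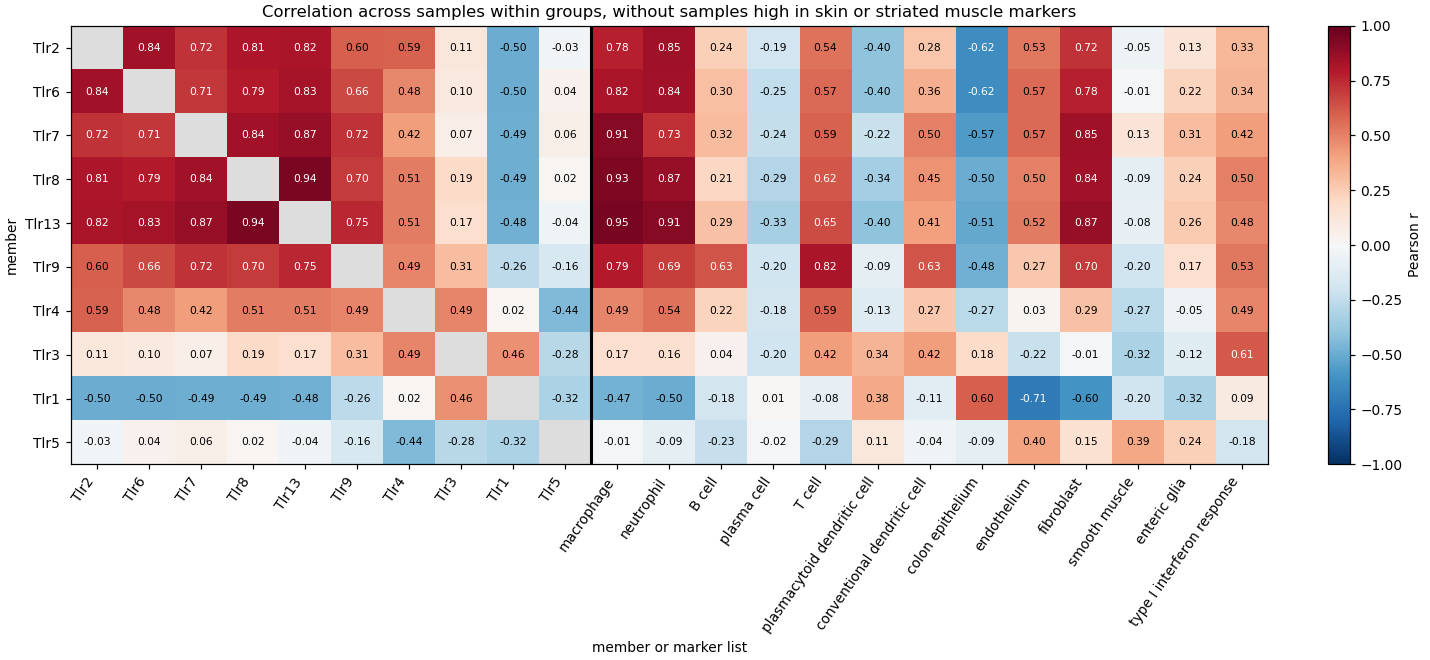
Rows are the 10 members and columns the members and 13 marker lists, with colour and printed number giving Pearson r of centred log2 CPM over 122 samples, those high in skin or striated muscle markers left out. Tlr2, Tlr6, Tlr7, Tlr8, Tlr13 and Tlr9 form a red block that extends to the macrophage and neutrophil columns, while the Tlr1 row is blue there and red at colon epithelium with 0.60.

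**Figure D5:**
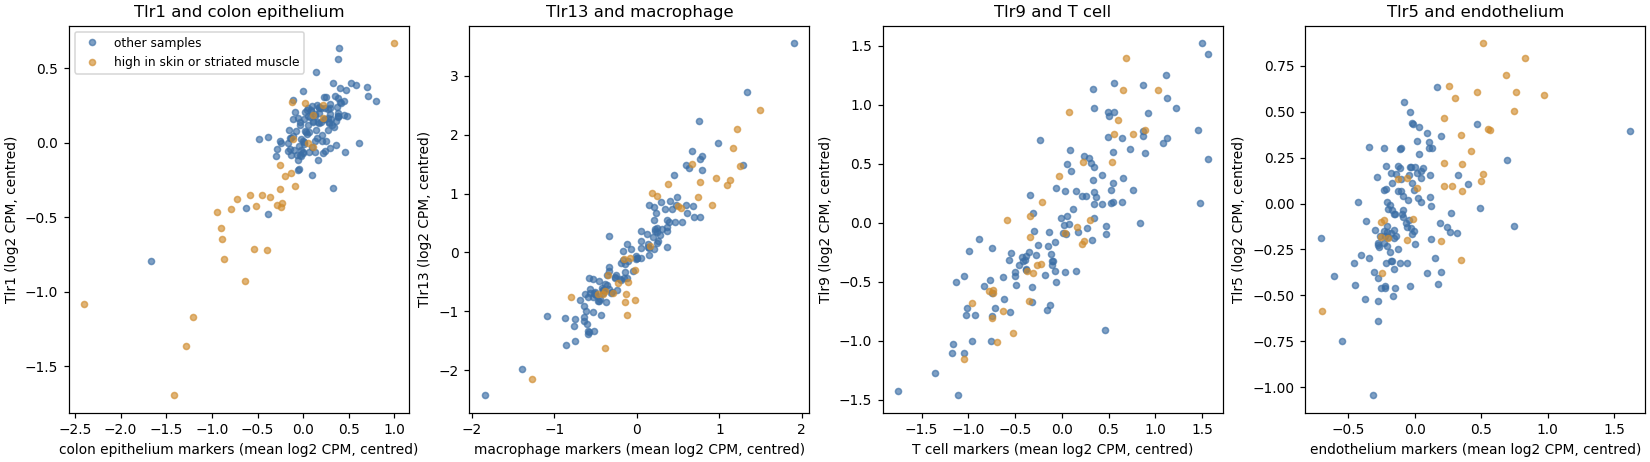
Each point is 1 of 158 samples, with the mean log2 CPM of a marker list on the horizontal and the log2 CPM of a gene on the vertical axis, both centred within groups. Orange points are the samples high in skin or striated muscle markers, which extend the Tlr1 and colon epithelium cloud downwards, whereas the Tlr13 and macrophage points of both colours lie on one line.

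The members were also correlated with the pathway genes. Over 460 relations of the 10 members with the 46 pathway genes kept in all lines, 361 were called, 267 positive and 94 negative, by 20000 permutations with a smallest possible p of 5e-05, adjusted over the 460. No share for other genes was taken here either, so this count does not mark out the pathway. The chaperone Unc93b1 had r = 0.87 with Tlr9 (rho = 0.86), 0.77 with Tlr13 (rho = 0.77) and 0.75 with Tlr8 (rho = 0.78), each with permutation p = 5e-05. With Tlr3, which also needs it, r was 0.28 (rho = 0.31, permutation p = 0.0023 and 0.00035).

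The lipopolysaccharide co-receptors Cd14 and Ly96 (MD-2) had r = 0.62 (rho = 0.65) and 0.44 (rho = 0.41) with Tlr4 (permutation p = 5e-05 each). Cd14, which also serves other receptors, had r = 0.86 with Tlr13 (rho = 0.83, permutation p = 5e-05). Tlr4 had r = 0.71 with Myd88 (rho = 0.73, permutation p = 5e-05) and -0.09 with Ticam1 (rho = -0.10, permutation p = 0.371 and 0.246), its 2 adaptors. Ticam1 had r = 0.60 with Tlr3 (rho = 0.49) and 0.76 with Tlr1 (rho = 0.61), with permutation p = 5e-05, and these were 0.27 and 0.43 without the samples high in skin or striated muscle markers. The inhibitor Irak3 had r = 0.83 with Tlr13 (rho = 0.75) and -0.66 with Tlr1 (rho = -0.64), with permutation p = 5e-05.

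For each member the 3 genes with the most similar pattern were found among genes kept in all lines, by the mean of the 4 within-line r of centred log2 CPM, over 158 samples. For Tlr13 they were Tyrobp, an adaptor of activating myeloid receptors, at 0.97, Pirb, an inhibitory receptor of myeloid and B cells, at 0.97, and Fcer1g, the Fc receptor gamma chain, at 0.96. For Tlr8 they were Fcgr3 (0.95), Fcer1g (0.95) and Tyrobp (0.94), and for Tlr6 Cd300lf (0.89), Slc11a1 (0.88) and Fcer1g (0.88). For Tlr7 they were Cd84 (0.92), Lyz2 (0.91) and Csf1r (0.90), the last a gene of the macrophage list, and for Tlr2 Gsap, Igsf6 and Pla2g7 (0.88 each).

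The nearest genes of the remaining members were found in the same way. Those of Tlr9 were Pik3cd (0.90), a kinase subunit of leukocytes, Arhgap30 (0.89) and Pik3ap1 (0.89), itself a Toll-like receptor adaptor. Those of Tlr3 were Dennd2d (0.82), Epsti1 (0.82) and Eif2ak2 (0.81), the kinase PKR that also binds double-stranded RNA. Those of Tlr4 were Casp4 (0.81), the caspase that binds lipopolysaccharide inside the cell, Gm16685 (0.78) and Appl1 (0.77). Tlr1 had Golm1 (0.91), Ppm1h (0.91) and Yipf6 (0.90), of which Golm1 and Yipf6 encode Golgi proteins. Tlr5 had the loosest neighbours, the water channel Aqp1 (0.71), Lrp12 (0.68) and Copz2 (0.66).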

How the data were processed

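Total RNA of distal colon was sequenced after ribosomal RNA depletion with a stranded kit, as single reads of 100 bases. The deposited files hold raw counts of reads per Ensembl gene, which the authors made with STAR and featureCounts (Subread) on mm10, versions not given in the sources used here. Of 39179 genes, 37693 (96.2%) matched GENCODE, with 99.67% of counts. Totals ran from 4344988 to 19993833 per sample, where 3 counts equal 0.15 to 0.69 CPM, and this covers counting error only.

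Genes were filtered (filterByExpr by line and genotype) and tested with edgeR 4.0.16 (TMM, quasi-likelihood, Benjamini-Hochberg, threshold 0.05) in R 4.3.3, within each line, with sex as a covariate where both sexes were present. DESeq2 1.42.0, limma-voom 3.58.1, sva 3.50.0 (2 surrogate variables), RLE factors, other filters and subsets of samples were alternatives. Standard errors are the absolute log2 fold change over the square root of F. Log2 CPM used a prior count of 2. Correlations used numpy 2.4.6 and scipy 1.17.1, with permutations within cells of line, genotype, sex and run of sample numbers. A run is a stretch of consecutive sample numbers in the labels of a line. The edgeR and permutation steps were tested on simulated data.

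All 10 members are named. Of the pathway genes, those called (at most 5 by smallest p) are named, or the 2 with the smallest p where none was called, and further pathway genes in the correlations were chosen after their values were seen. The members and lists were chosen with earlier results of these data known. Samples were grouped by the labels' line and genotype. Nothing in the labels pairs samples, and p-values measure the spread between these mice.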

Additional observations from a re-analysis of the deposited data

How the results depend on the processing

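Members called between knockout and wild type stayed at 0 of 10 in all 4 lines under every alternative run at the adjusted threshold. With an unadjusted p under 0.05 the counts were 1 in the Dock2 line and 2 in the Gpsm3 line. With 2 surrogate variables they were 4 in the Nckap1l line, against 0, and 3 in the Dock2 line. In that setting the share of all genes called at the adjusted threshold went from 0% to 0.457% and from 0.034% to 0.527%. The share of all genes under the unadjusted threshold was not taken there. Surrogate variables, the neutrophil covariate or limma-voom each brought the Gpsm3 count to 0. The median log2 fold change of the members in the Nckap1l line went from -0.02 to -0.43 without the samples high in skin or striated muscle markers and to -0.36 in males only. Between females and males of the Dock2 line, 2 members passed without the samples high in skin or striated muscle markers, against 0 with them, while the share of all genes called went from 9.75% to 18.3%. Between wild-type males of the Dok3 and Gpsm3 lines the 2 calls became 1 with no filter on low counts, 1 against the first and 0 against the second run of the Gpsm3 line, 0 against wild-type males of the Dock2 line and 1 without samples high in skin or striated muscle markers, while the share of all genes called went from 26.1% to 16.8%, 16.1%, 7.72%, 4.08% and 16.6% in that order. DESeq2, limma-voom and RLE factors gave 3 each, with 19.9%, 22.8% and 26% of all genes called. The cause of these changes was not tested. Leaving out the 3 Gpsm3 libraries, or in this comparison and the interaction the libraries whose sex-linked genes go against the label, was chosen after seeing the data, and both gave 3 calls between the lines. The shares of all genes called between the lines were then 25% and 28.5%. Of the order of levels per length, 8 of 10 places held with the longest transcript, where Tlr5 and Tlr7 changed places, and 8 with library totals, where Tlr9 and Tlr5 did. The 33 called pairs became 28 to 34 and the 112 called marker relations 91 to 116 under Spearman's rho, a prior count of 0.5, library totals, 1 genotype alone, or without the samples high in skin or striated muscle markers, where 6 marker relations changed sign. No paired analysis was possible because sample numbers in the labels do not link knockout and wild-type mice. Low counts limit Tlr6 most, with 10 to 215 counts per sample.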
